A study of Mus musculus with 9 samples.

Results

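The 9 genes described here encode the enzymes of the vitamin K cycle and a carboxylated ligand and receptor system that depends on it, and they were taken by gene symbol from the 28379 genes of the deposited table. The enzymes are Ggcx, Vkorc1, Vkorc1l1, Nqo1 and Aifm2, the ligands are Gas6 and Pros1, and the receptors are Mertk and Axl. Each symbol matched 1 row, and all 9 genes were among the 17002 genes with enough counts to be tested. RNA was sequenced from primary bone marrow-derived macrophages (BMDMs) of C57BL/6J mice aged 10 weeks, the cells that RANKL, the osteoclast differentiation cytokine, turns into bone-resorbing osteoclasts. There were 3 groups of 3 libraries: PBS, RANKL (100 ng/ml) and RANKL + Vit D + K, which added vitamin D (calcitriol, 1000 nM) and vitamin K (menaquinone MK4, 20 μM as labelled) to RANKL. All groups were cultured with M-CSF (20 ng/ml), the macrophage survival factor, and the treatments lasted 48 h. No library received only one of the vitamins, so their separate effects cannot be told apart.

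Vitamin K is the cofactor with which the carboxylase GGCX turns glutamate residues of certain proteins into γ-carboxyglutamate (Gla), and the epoxide that this leaves is reduced back by VKORC1 or its paralog VKORC1L1. NQO1 and AIFM2 (also called FSP1) reduce quinones, vitamin K among them, and AIFM2 is known for guarding membranes against lipid peroxidation and ferroptosis. GAS6 and protein S (Pros1) are Gla proteins that bridge phosphatidylserine on dying cells to the TAM receptor kinases TYRO3, AXL and MERTK, through which macrophages engulf those cells and restrain inflammation.

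The vitamins went with lower transcripts of both receptors and of Pros1, and RANKL went with lower Gas6. RANKL also went with lower Axl, a call lost in 6 of 17 alternative fits. Among the enzymes, the paralog Vkorc1l1 was higher with RANKL and vitamins than with PBS, a call kept in all 17. The promoters of the 4 ligand and receptor genes are shown because each of these was called lower in at least 1 comparison with its largest decrease over 2-fold. Each line gives the 250 bases before the RefSeq start (GRCm38.p6), 5′ to 3′ on the gene's strand. The capitals mark the GC box, GGGCGG on either strand, with overlapping matches counted. The stretches lie at chr8:13494536-13494785 (minus strand), chr16:62854057-62854306 (plus strand), chr2:128698665-128698914 (plus strand) and chr7:25788734-25788983 (minus strand).
Gas6: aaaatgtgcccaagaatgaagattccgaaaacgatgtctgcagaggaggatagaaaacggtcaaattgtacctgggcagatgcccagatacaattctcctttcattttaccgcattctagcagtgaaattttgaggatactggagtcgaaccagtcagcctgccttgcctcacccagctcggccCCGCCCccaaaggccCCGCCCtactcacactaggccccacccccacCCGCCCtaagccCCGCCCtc
Pros1: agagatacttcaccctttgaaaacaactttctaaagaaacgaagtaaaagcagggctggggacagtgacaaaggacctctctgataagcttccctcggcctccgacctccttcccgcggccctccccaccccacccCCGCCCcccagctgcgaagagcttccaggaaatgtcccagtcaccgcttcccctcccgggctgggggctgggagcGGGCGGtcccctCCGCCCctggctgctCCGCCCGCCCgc
Mertk: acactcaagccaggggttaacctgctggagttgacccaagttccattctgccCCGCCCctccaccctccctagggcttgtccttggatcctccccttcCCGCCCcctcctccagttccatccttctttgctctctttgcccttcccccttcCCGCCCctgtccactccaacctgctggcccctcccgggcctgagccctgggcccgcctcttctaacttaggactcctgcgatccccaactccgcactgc
Axl: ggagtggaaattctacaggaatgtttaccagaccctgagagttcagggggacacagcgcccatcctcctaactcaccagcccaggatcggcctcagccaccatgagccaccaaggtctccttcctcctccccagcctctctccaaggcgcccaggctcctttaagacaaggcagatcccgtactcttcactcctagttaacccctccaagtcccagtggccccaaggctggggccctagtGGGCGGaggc

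The GC box occurred 4 times in the Gas6 stretch, 5 times in Pros1, 3 times in Mertk and once in Axl. It was present in 8 of the 9 genes, Aifm2 being the exception, and in 32.7% of the 32851 RefSeq promoter stretches of the same length. CCAAT was found in 2 of the 9 genes, Vkorc1 and Vkorc1l1, against 33.8% of all stretches. TATAAA was found in 1, Nqo1, with its first base at position -29, against 12.4% of all stretches. The letters TGACNNNGC, the core of the antioxidant response element, were in none of the 9 windows and in 10.2% of all stretches. These matches describe letters in a window and show no binding.

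The libraries held between 65915112 and 68229647 counts, so depth was close to equal. All 5 macrophage markers listed (Csf1r, Adgre1, Cd68, Lyz2 and Itgam) were above 0 in every group. Target genes of the treatments moved with the labels. Acp5, encoding the osteoclast phosphatase TRAP, rose with RANKL (log2 fold change 5.57, SE 0.687) and fell when vitamins were added (-5.89, SE 0.698, and -7.16 without RANKL + Vit D + K replicate 2). Ctsk, the osteoclast collagenase, moved likewise (4.83, SE 0.348, then -2.80, SE 0.316), as did Nfatc1, the osteoclast master regulator (0.81, SE 0.125, then -1.27, SE 0.127). The first Nfatc1 call was lost without PBS replicate 1 (edgeR adjusted p = 0.0528), PBS replicate 3 (0.063) or RANKL replicate 1 (0.0587). Cyp24a1, the enzyme that degrades calcitriol and a direct target of its receptor, had 39, 113 and 64 counts with the vitamins, 0 in each RANKL library and 3, 0 and 0 with PBS. Vdr, the calcitriol receptor itself, was low throughout, with at most 140 counts in a library, and fell with the vitamins (-3.15, SE 0.873), a call lost without RANKL replicate 1 (edgeR adjusted p = 0.0738) or RANKL + Vit D + K replicate 1 (0.0663), in the fit of the 2 groups alone (0.0628), and by limma on log2(FPKM + 1), where the change of this low gene was -0.14 (adjusted p = 0.192). Without RANKL + Vit D + K replicate 2 the Vdr change was -4.28.

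**Figure D1:**
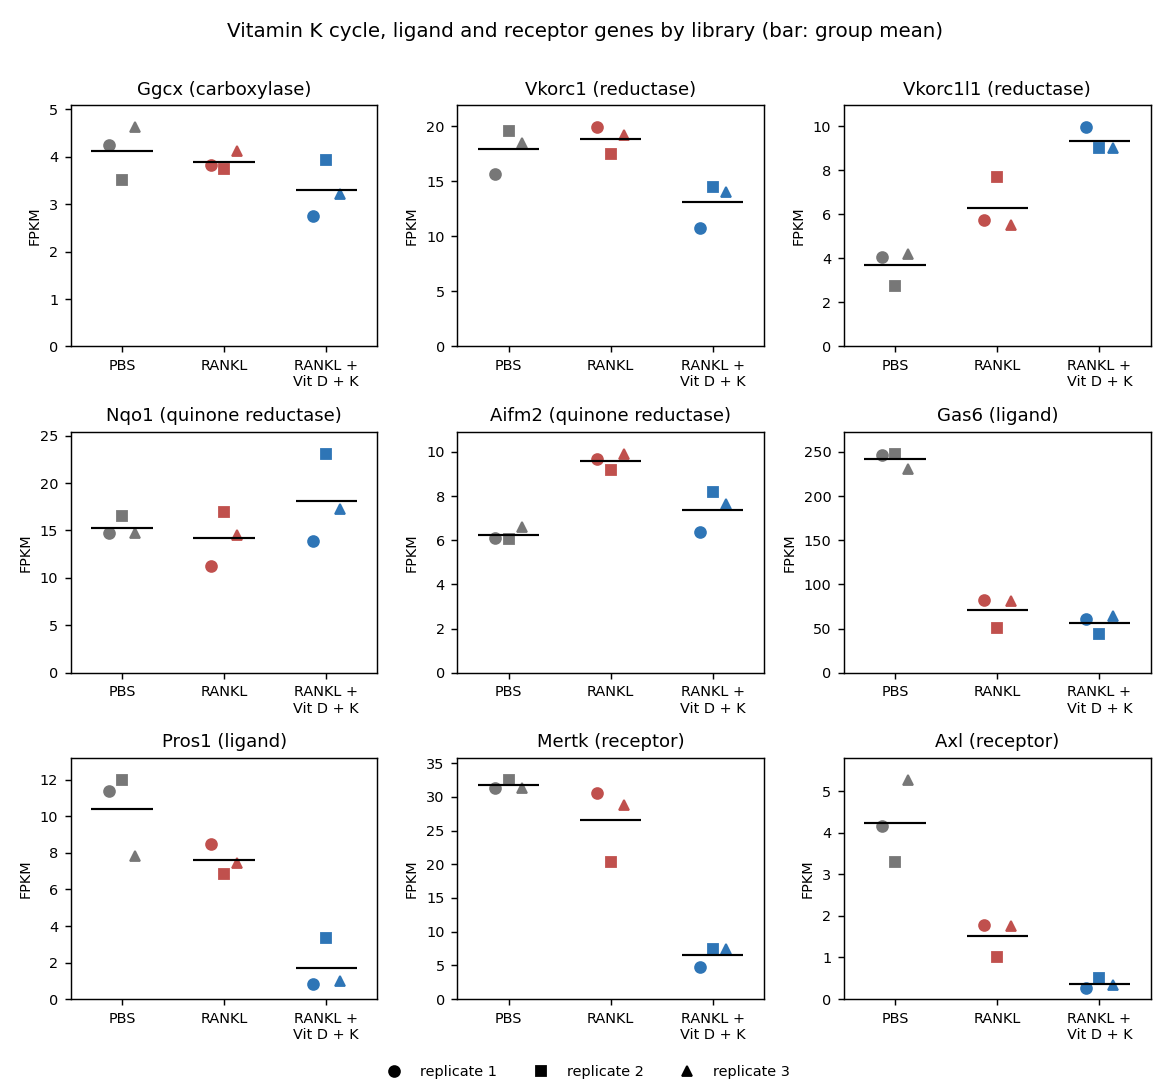
FPKM (y axis, from 0, scale set for each gene) of the 9 genes in each of the 9 libraries, by group (x axis), with a bar at the group mean and a marker shape for the replicate number. Mertk, Axl and Pros1 are lowest in the 3 RANKL + Vit D + K libraries, Gas6 is highest in the 3 PBS libraries, and Vkorc1l1 rises across the groups from 3.68 to 9.32 on average.

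Levels are given as FPKM, fragments scaled to transcript length and to library size, which allows genes to be compared with each other. In PBS libraries the order of mean FPKM was Gas6 (242), Mertk (31.7), Vkorc1 (17.9), Nqo1 (15.3), Pros1 (10.4), Aifm2 (6.24), Axl (4.25), Ggcx (4.13) and Vkorc1l1 (3.68). Neighbours whose replicate ranges overlapped were Vkorc1 and Nqo1, Axl and Ggcx, and Ggcx and Vkorc1l1. Gas6 was rank 114 of the 17002 genes tested in PBS, rank 533 in RANKL and rank 684 in RANKL + Vit D + K. In RANKL the overlapping neighbours were Pros1 and Vkorc1l1, and with the vitamins Nqo1 and Vkorc1, Aifm2 and Mertk, and Ggcx and Pros1. Gas6 led in every group, whereas Mertk was second in PBS and RANKL and rank 6 of the 9 by mean with the vitamins, where it overlapped Aifm2 at rank 5, and Axl was last of the 9 in both RANKL groups.

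Each comparison was tested with edgeR's quasi-likelihood test over all genes, and a gene was called when its Benjamini-Hochberg adjusted p was under 0.05. RANKL against PBS asks what the osteoclast signal changed, RANKL + Vit D + K against RANKL what the vitamins changed on top of it, and RANKL + Vit D + K against PBS how far the treated cells stood from untreated ones. The comparisons share libraries and are given side by side. In RNA from whole cultures, fewer cells of a type and less of a transcript per cell cannot be told apart. For RANKL against PBS, 2 of the 9 genes were called, both lower, where 3.61% of all genes tested were called, 2.35% higher and 1.26% lower. For RANKL + Vit D + K against RANKL, 4 of 9 were called (1 higher, 3 lower) where 33.7% of all genes were called, 16.4% higher and 17.2% lower. For RANKL + Vit D + K against PBS, 6 of 9 were called (1 higher, 5 lower) where 40.8% of all genes were called, 19.8% higher and 21.0% lower. The median log2 fold changes of the 9 genes were -0.23, -0.24 and -0.43, and those of all genes tested were -0.043, -0.0435 and -0.0422. The replicate ranges of FPKM did not overlap for 5, 6 and 6 of the 9 genes, against 35.2%, 46.2% and 52.5% of all genes. The shares of all genes called are also the background for the counts of the gene lists below.

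**Figure D2:**
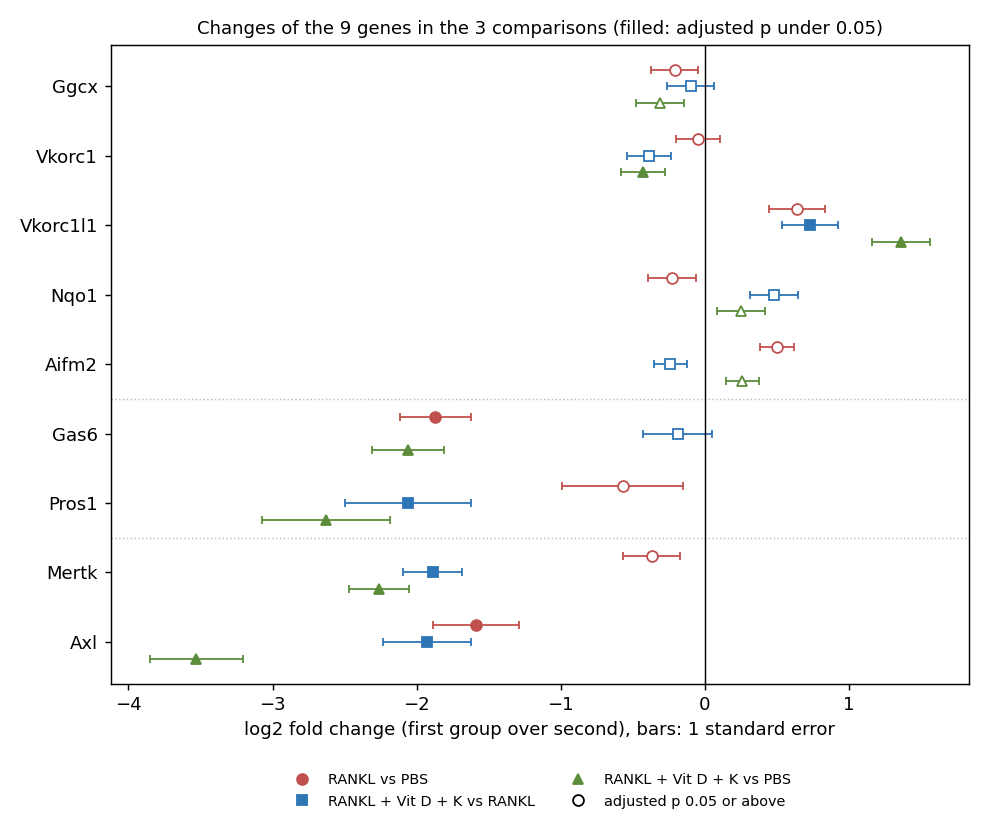
Log2 fold change (x axis, bars 1 standard error) of each gene (y axis) in the 3 comparisons, with filled symbols where the adjusted p was under 0.05 and dotted lines between enzymes, ligands and receptors. All 4 ligand and receptor genes lie left of 0 in every comparison, and Vkorc1l1 lies right of 0 in every comparison.

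Ggcx, the carboxylase (chr6:72414308-72430712, plus strand, in the coordinates of the table, GRCm38), changed little. Its FPKM was 4.25, 3.52 and 4.62 in PBS, 3.82, 3.75 and 4.12 in RANKL, and 2.75, 3.94 and 3.22 in RANKL + Vit D + K. The groups overlapped in every comparison. The log2 fold changes were -0.21 (SE 0.165) for RANKL, -0.10 (SE 0.165) for the vitamins on RANKL and -0.31 (SE 0.165) for the vitamins against PBS, none called (edgeR adjusted p = 0.561, 0.671 and 0.162). At these errors a change of the size seen could not be told from 0.

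The paralogous epoxide reductases had changes of opposite sign with the vitamins. Vkorc1 (chr7:127893063-127895617, minus strand), the classical warfarin target, had FPKM of 15.7, 19.6 and 18.5 in PBS, 19.9, 17.5 and 19.2 in RANKL, and 10.8, 14.5 and 14.0 in RANKL + Vit D + K. The 3 vitamin libraries were lower than all 6 others. The change with the vitamins was -0.39 (SE 0.154, edgeR adjusted p = 0.0803) against RANKL and -0.43 (SE 0.154, adjusted p = 0.0484) against PBS, so that only the second was called. That call was narrow: it was lost in 13 of 17 alternative fits, including the fits without any one library other than RANKL replicate 2 (adjusted p from 0.0522 to 0.198). Against RANKL, the decrease was called in 4 of 17 alternatives, by DESeq2 (adjusted p = 0.0352) and by limma with each of the 3 pseudocounts (adjusted p from 0.0181 to 0.0393). RANKL against PBS gave -0.05 (SE 0.153, adjusted p = 0.916), with a direction that varied between fits. Of the 689 windows of 150 bases in Vkorc1 transcripts, 36.7% also occur in the annotated readthrough gene Gm21974, so reads of these genes may not be separable.

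Vkorc1l1 (chr5:129941970-129986692, plus strand), the paralog that also reduces the epoxide, had FPKM of 4.06, 2.76 and 4.21 in PBS, 5.74, 7.67 and 5.50 in RANKL, and 9.94, 9.0 and 9.01 in RANKL + Vit D + K. The 3 groups did not overlap. Against PBS, vitamin-treated cells had 2.57-fold more transcript (log2 fold change 1.36, SE 0.198, edgeR adjusted p = 0.00108), a call kept in all 17 alternatives. The steps were smaller: 0.64 (SE 0.195, adjusted p = 0.115) with RANKL and 0.73 (SE 0.195, adjusted p = 0.0202) with the vitamins on RANKL. The latter call was lost in 6 of 17 alternatives, by limma with 0.1 or 0.01 added to FPKM (adjusted p = 0.0562 and 0.0672) and without RANKL replicate 1 (adjusted p = 0.0766), RANKL replicate 3 (0.0758), RANKL + Vit D + K replicate 1 (0.0746) or RANKL + Vit D + K replicate 3 (0.0623). RANKL alone was called in 1 of 17 alternatives, DESeq2 (adjusted p = 0.0307). The gene Gm5417, with 39 to 139 counts in a library, shares 5.01% of the windows of Vkorc1l1.

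Within a library the ratio of Vkorc1 to Vkorc1l1 is free of scaling between libraries. It was 3.87, 7.08 and 4.39 in PBS, 3.47, 2.28 and 3.49 in RANKL, and 1.09, 1.61 and 1.55 in RANKL + Vit D + K. The groups did not overlap. The mean log2 ratio differed by -0.71 (RANKL against PBS), -1.11 (vitamins against RANKL) and -1.82 (vitamins against PBS), each with an exact two-sided permutation p = 0.1, the smallest that 3 libraries against 3 allow. The summed FPKM of the pair was 19.8 to 22.7 in PBS, 24.7 to 25.6 in RANKL and 20.7 to 23.5 with the vitamins, highest in the RANKL libraries. Vkorc1 made up 79.5% to 87.6% of the sum in PBS, 69.5% to 77.7% in RANKL and 52.1% to 61.8% with the vitamins.

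**Figure D3:**
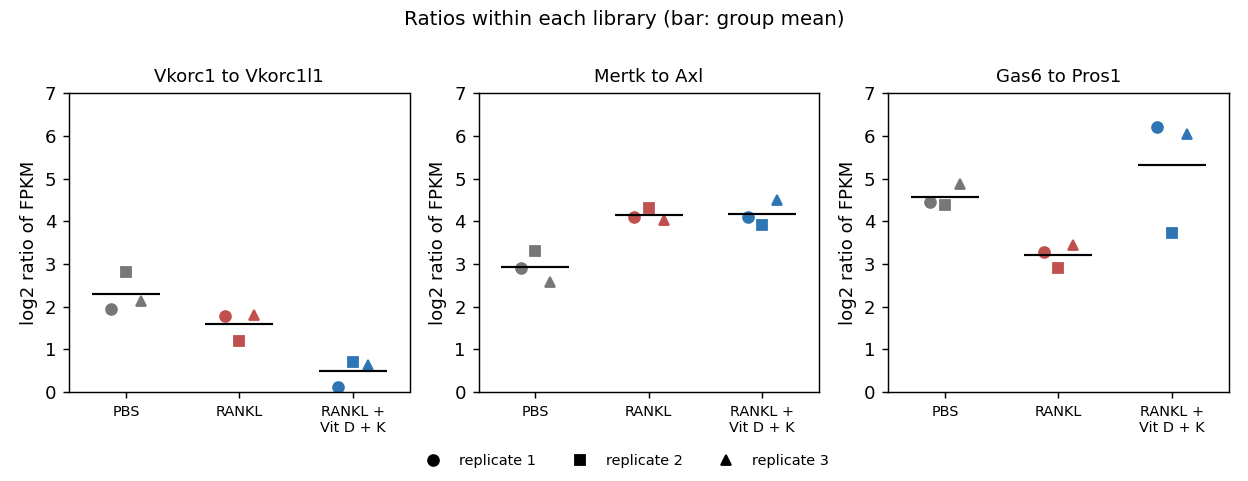
Log2 ratio of FPKM (y axis) within each library for 3 pairs of genes, by group (x axis), with a bar at the group mean and a marker shape for the replicate number. The Vkorc1 to Vkorc1l1 ratio falls across the groups, the Mertk to Axl ratio is higher in both RANKL groups than in PBS, and RANKL + Vit D + K replicate 2 lies apart from its group for Gas6 to Pros1.

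Of the quinone reductases, Nqo1 (chr8:107388225-107403206, minus strand), a textbook NRF2 target, had FPKM of 14.7, 16.5 and 14.7 in PBS, 11.3, 16.9 and 14.5 in RANKL, and 13.9, 23.1 and 17.3 in RANKL + Vit D + K. In all groups replicate 2 was the highest, and the groups overlapped. Its change with the vitamins on RANKL was 0.48 (SE 0.167, edgeR adjusted p = 0.0533), just outside the threshold. It was called in 4 of 17 alternatives, among them DESeq2 (adjusted p = 0.0384) and the fits without RANKL replicate 2 (edgeR adjusted p = 0.0472) or RANKL + Vit D + K replicate 1 (0.0438). The other 2 comparisons gave -0.23 (SE 0.167) and 0.25 (SE 0.167), not called.

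Aifm2 (chr10:61715263-61738653, plus strand) had FPKM of 6.08, 6.06 and 6.58 in PBS, 9.69, 9.20 and 9.92 in RANKL, and 6.36, 8.18 and 7.62 in RANKL + Vit D + K. The 3 RANKL libraries were the highest of all. With RANKL the log2 fold change was 0.50 (SE 0.117, edgeR adjusted p = 0.052), and in the model that pairs libraries by replicate number it was 0.50 (SE 0.107, adjusted p = 0.0473) and called. In all, 8 of 17 alternatives called it, among them the fits without RANKL + Vit D + K replicate 1 (adjusted p = 0.035) or replicate 2 (0.0222) and DESeq2 (0.000711), and 9 did not. The vitamins gave -0.24 (SE 0.116, adjusted p = 0.144) against RANKL, which 1 of 17 alternatives called, limma on log2(FPKM + 1) (adjusted p = 0.0212). Exons of Aifm2 overlap 233 bases of H2afy2 on the other strand, whose count summed over all libraries was 428.

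From a list of 10 NRF2 regulators and targets, none rose and 6 fell with RANKL, where 3.61% of all genes were called. With the vitamins on RANKL 8 rose and 1, G6pdx, fell, where 33.7% of all genes were called. The medians of the list were -0.835 and 0.835, against the medians of all genes given above. With RANKL the largest decreases were in Gclm (-1.24, SE 0.114), which encodes the modifier subunit of the glutathione-synthesis enzyme, Hmox1 (-1.08, SE 0.149), the heme oxygenase, Txnrd1 (-0.96, SE 0.157), a thioredoxin reductase, and Gsr (-0.93, SE 0.136), the glutathione reductase. With the vitamins, Srxn1 (1.51, SE 0.173), Txnrd1 (1.36, SE 0.158), Gclc (1.15, SE 0.176) and Hmox1 (1.12, SE 0.149) rose most. Both comparisons use the same RANKL libraries. With RANKL, the calls of Hmox1, Txnrd1 and Gsr were lost without PBS replicate 3 (edgeR adjusted p = 0.0522, 0.0916 and 0.0596), those of Txnrd1 and Gsr also without PBS replicate 1 (0.081 and 0.06) or RANKL replicate 1 (0.0664 and 0.0537), and that of Txnrd1 without RANKL replicate 3 (0.0525). Those of Txnrd1 and Gsr were also lost by limma on log2(FPKM + 0.01) (adjusted p = 0.0607 and 0.0602). The call of G6pdx was lost without any one library other than RANKL + Vit D + K replicate 2, with adjusted p up to 0.159, and also with no filter (0.0685), with the 2 groups alone (0.0987) and by limma on log2(FPKM + 0.01) (0.0535). Against PBS, 1 of the 10 was higher and 3 were lower with the vitamins.

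**Figure D4:**
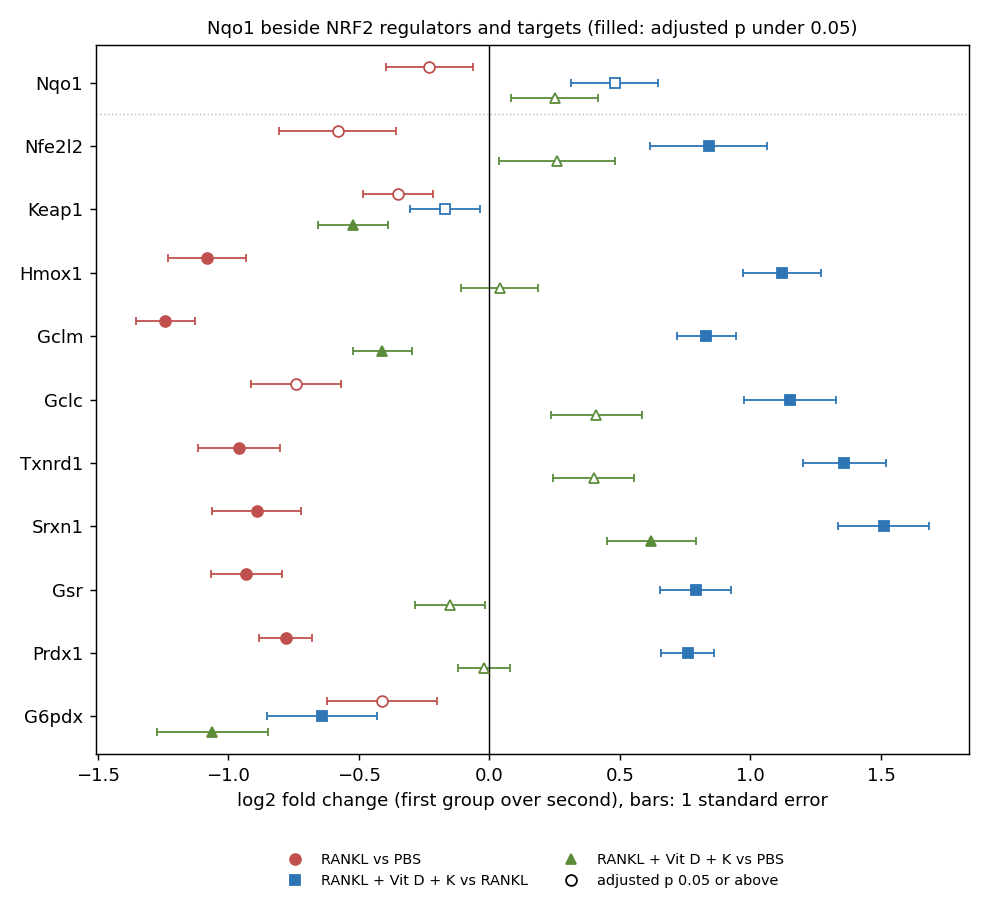
Log2 fold change (x axis, bars 1 standard error) of Nqo1 and of 10 NRF2 regulators and targets (y axis) in the 3 comparisons, with filled symbols where the adjusted p was under 0.05. Filled circles (RANKL against PBS) lie left of 0, and filled squares (vitamins against RANKL) lie right of 0 except for G6pdx, while no symbol of Nqo1 is filled.

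In a list of 12 ferroptosis guards and drivers, 11 were tested and none was called with RANKL. With the vitamins on RANKL 5 of the 11 rose and 1 fell, where 33.7% of all genes were called. The subunits of the cystine importer rose most: Slc7a11 from 2.28 to 4.81 FPKM in RANKL libraries to 43.5 to 81.0 with the vitamins (4.46, SE 0.459), and Slc3a2 by 3.42 (SE 0.33). Acsl4, which loads membranes with peroxidizable fatty acids, rose by 1.07 (SE 0.162) and Gss, the glutathione synthetase, by 1.01 (SE 0.16), whereas Lpcat3, a phospholipid-remodelling enzyme, fell (-1.17, SE 0.308). The Lpcat3 call was lost without RANKL replicate 1 (edgeR adjusted p = 0.0615), RANKL + Vit D + K replicate 1 (0.0557) or RANKL + Vit D + K replicate 3 (0.0803), and in the fit of the 2 groups alone (0.0556). The list median was 0.52. Gpx4, the central lipid peroxide reductase, gave -0.13 (SE 0.102) and was not called, as Aifm2 was not.

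Of 12 other vitamin K handling genes, 7 were tested. With RANKL 1 of them, Calu, an endoplasmic reticulum protein that inhibits the carboxylase, rose by 0.46 (SE 0.105). With the vitamins on RANKL 1 of the 7 rose and 3 fell, where 33.7% of all genes were called, and the list median was -0.94. Calu rose by 0.32 (SE 0.105). Those that fell were the quinone reductase Nqo2 (-0.94, SE 0.262) and the cytochrome P450 genes Cyp4f16 (-1.20, SE 0.206) and Cyp4f18 (-1.76, SE 0.347), whose family includes ω-hydroxylases of vitamin K side chains. The calls of Calu and Nqo2 were narrow. In the fits that left out 1 library, the edgeR adjusted p reached 0.178 for Calu with RANKL (without PBS replicate 1), and with the vitamins 0.165 for Calu (without RANKL replicate 1, and up to 0.402 by limma, where the change was 0.17 or 0.18) and 0.0968 for Nqo2 (without RANKL + Vit D + K replicate 3). Against PBS the count was also 1 higher and 3 lower, but the 3 were not the same genes. Nqo2 was not called (edgeR adjusted p = 0.0525), and Cyp4f17 was called lower (-1.12, SE 0.311, adjusted p = 0.019). With 1 library left out, the adjusted p of Cyp4f17 reached 0.0716.

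Among 15 other Gla proteins, 8 were tested, and none was called with RANKL. Their levels differed widely. F10, the gene of clotting factor X, had 717 to 1894 counts in a library (3.51 to 8.9 FPKM) and F7, of factor VII, had up to 458, and neither was called in any comparison. Bglap (osteocalcin) reached at most 6 counts in a library, F2 (prothrombin) at most 4, and Proc (protein C) had 0 counts in all 9 libraries, which allows up to 3 counts or 4.55e-06% of a library. Both mates of a read pair may each have been counted, so that these small counts may stand for fewer fragments and the floor may be higher. With the vitamins on RANKL 1 of the 8 rose and 2 fell, where 33.7% of all genes were called. Prrg4, a transmembrane Gla protein, went from 1.04, 1.00 and 0.863 FPKM in RANKL to 6.05, 5.27 and 11.4 with the vitamins (3.12, SE 0.383), and was 0.309, 0.675 and 0.573 in PBS. Prrg1, a related transmembrane Gla protein, fell (-1.24, SE 0.296), as did Proz, the gene of protein Z (-1.59, SE 0.421). Over all alternatives the smallest changes of these low genes were -0.32 for Prrg1 and -0.6 for Proz. The Proz call was lost without RANKL replicate 1 (edgeR adjusted p = 0.0621), RANKL replicate 3 (0.0588) or RANKL + Vit D + K replicate 3 (0.0717), and in the fit of the 2 groups alone (0.0563).

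Gas6 (chr8:13465374-13494490, minus strand), the ligand that binds all TAM receptors, was the most abundant of the 9 transcripts and the one most changed by RANKL. Its FPKM was 247, 248 and 231 in PBS, 82.2, 51.0 and 80.8 in RANKL, and 60.9, 44.4 and 63.8 in RANKL + Vit D + K. The PBS libraries stood above all others, and both RANKL groups overlapped. RANKL lowered it 3.66-fold (log2 fold change -1.87, SE 0.248, edgeR adjusted p = 0.00671), and the value with vitamins was 4.17-fold below PBS (-2.06, SE 0.249, adjusted p = 0.000538), both called in all 17 alternatives. The vitamins on RANKL gave -0.19 (SE 0.24, adjusted p = 0.585), and 0.01 without RANKL + Vit D + K replicate 2.

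Pros1 (chr16:62854307-62929346, plus strand), which encodes the anticoagulant protein S and activates MERTK and TYRO3, fell with the vitamins. Its FPKM was 11.4, 12.0 and 7.85 in PBS, 8.47, 6.85 and 7.45 in RANKL, and 0.821, 3.37 and 0.973 in RANKL + Vit D + K. The vitamin libraries were lowest, and replicate 2 among them stood well above the other two. The vitamins on RANKL lowered it 4.16-fold (-2.06, SE 0.437, edgeR adjusted p = 0.008), and the change was -2.86 without RANKL + Vit D + K replicate 2. Against PBS it was -2.63 (SE 0.446, adjusted p = 0.00215), and -3.43 without that library. RANKL alone gave -0.57 (SE 0.42, adjusted p = 0.527), with overlapping groups.

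The Gas6 to Pros1 ratio of FPKM was 21.7, 20.7 and 29.4 in PBS, 9.71, 7.45 and 10.9 in RANKL, and 74.2, 13.2 and 65.6 in RANKL + Vit D + K. RANKL libraries were the lowest, and the vitamin group spanned the PBS range, with replicate 2 below it and the other two above. The log2 differences were -1.36 (RANKL against PBS) and 2.12 (vitamins against RANKL), both with an exact permutation p = 0.1, and 0.76 (vitamins against PBS, exact permutation p = 0.4). Without RANKL + Vit D + K replicate 2 these last values were 2.92 and 1.56.

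Mertk (chr2:128698956-128802894, plus strand), the main engulfment receptor of resting macrophages, fell with the vitamins. Its FPKM was 31.3, 32.5 and 31.3 in PBS, 30.5, 20.3 and 28.8 in RANKL, and 4.74, 7.49 and 7.39 in RANKL + Vit D + K. The vitamin libraries lay far below the other 6, and RANKL replicate 2 was the lowest of its group. The vitamins on RANKL lowered it 3.71-fold (-1.89, SE 0.206, edgeR adjusted p = 0.000661) and it was 4.81-fold below PBS (-2.26, SE 0.208, adjusted p = 0.000226), both called in all 17 alternatives. RANKL alone gave -0.37 (SE 0.199, adjusted p = 0.37), and no alternative called it.

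Axl (chr7:25757273-25788705, minus strand), the receptor with the highest affinity for GAS6 and induced in inflamed macrophages, fell at both steps. Its FPKM was 4.16, 3.30 and 5.27 in PBS, 1.78, 1.02 and 1.76 in RANKL, and 0.276, 0.495 and 0.329 in RANKL + Vit D + K. None of the 3 groups overlapped. RANKL lowered it 3.02-fold (-1.59, SE 0.297, edgeR adjusted p = 0.0236), the vitamins on RANKL 3.82-fold (-1.93, SE 0.305, adjusted p = 0.0025), and with RANKL and vitamins it was 11.5-fold below PBS (-3.53, SE 0.323, adjusted p = 0.000226). The first call was lost in 6 of 17 alternatives, by limma on log2(FPKM + 0.01) (adjusted p = 0.0577) and without PBS replicate 1 (0.0945), PBS replicate 3 (0.111), RANKL replicate 1 (0.0637), RANKL replicate 2 (0.061) or RANKL replicate 3 (0.0524), with values of -1.34 to -1.73 in these fits, while the other 2 were kept in all 17 alternatives. With 1 added to FPKM before the log, which shrinks changes of low genes, limma put the 3 changes at -1.06, -0.87 and -1.93.

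Mertk and Axl together had a summed FPKM of 35.5 to 36.6 in PBS, 21.3 to 32.3 in RANKL and 5.02 to 7.98 in RANKL + Vit D + K. The Mertk to Axl ratio was 7.52, 9.84 and 5.94 in PBS, 17.1, 19.8 and 16.4 in RANKL, and 17.1, 15.1 and 22.5 in RANKL + Vit D + K. PBS libraries had the lowest ratios, and both RANKL groups overlapped. The log2 ratio differed by 1.22 between RANKL and PBS and by 1.24 between vitamins and PBS (exact permutation p = 0.1 each), but by 0.02 between vitamins and RANKL (exact permutation p = 0.8), a difference whose sign varied between settings.

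Tyro3, the third TAM receptor, was at 0 in 7 of the 9 libraries and had 4 and 8 counts in the other two, too few to test. Of 12 TAM partners, sheddases and feedback genes, 7 were tested, and none was called with RANKL. With the vitamins on RANKL only Lgals3, a galectin that can bind MERTK, was called, rising by 0.77 (SE 0.194). Adam17, the protease that sheds MERTK, gave -0.35 (SE 0.144, edgeR adjusted p = 0.0907) and was called lower against PBS (-0.56, SE 0.144, adjusted p = 0.0136), a call lost without PBS replicate 1 (0.0878), PBS replicate 3 (0.069), RANKL + Vit D + K replicate 1 (0.0621) or RANKL + Vit D + K replicate 3 (0.0667). The list median was -0.16 with the vitamins on RANKL.

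The wider phosphatidylserine and engulfment list held 24 genes, of which 21 were tested. With RANKL 1 fell, the scavenger receptor Stab1 (-1.46, SE 0.27), and none rose. With the vitamins on RANKL 6 of the 21 rose and 8 fell, where 33.7% of all genes were called, with a list median of -0.37. The largest increases were in the integrin chain Itgb3 (2.08, SE 0.547), the scavenger receptor Cd36 (1.63, SE 0.277), the engulfment adaptor Elmo1 (1.14, SE 0.155) and the bridging protein gene Mfge8 (1.02, SE 0.179). Among the larger decreases were the complement chains C1qa (-2.89, SE 0.359) and C1qc (-2.53, SE 0.288) and the lipid exporter Abca1 (-2.69, SE 0.19). The scavenger receptor gene Stab2 was called lower with a size that could not be fixed: it had 154, 93 and 170 counts in RANKL and 0, 12 and 0 with the vitamins, and its change was -5.02 (SE 1.17) by edgeR, -10.02 without RANKL + Vit D + K replicate 2, where the other two are at 0, and -0.26 by limma on log2(FPKM + 1). The Itgb3 counts with the vitamins were 8138, 1742 and 5399, of which the second lay within the RANKL counts of 1149, 2050 and 1039, and its call was lost without RANKL replicate 1 (edgeR adjusted p = 0.0723), RANKL replicate 3 (0.0713), RANKL + Vit D + K replicate 1 (0.0677) or RANKL + Vit D + K replicate 3 (0.0546), and by limma (0.0505 to 0.0663). The Stab1 call with RANKL was lost without any one PBS or RANKL library (adjusted p from 0.0655 to 0.105) and by limma (0.0518 to 0.0911). Against PBS 3 were higher and 9 lower.

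Of the macrophage markers, 3 of 5 fell with the vitamins, as the receptors did. The summed FPKM of the 5 markers was 26200 to 30400 in PBS, 16600 to 24100 in RANKL and 4480 to 11500 with the vitamins, a sum that Lyz2 dominates, and none of the 5 was at 0. With the vitamins on RANKL, Csf1r, the M-CSF receptor (-1.45, SE 0.217), Lyz2, lysozyme (-1.61, SE 0.343), and Adgre1, which encodes F4/80 (-0.78, SE 0.156), were lower, Cd68 was higher (0.53, SE 0.131), and Itgam was not called (-0.33, SE 0.149). With RANKL only Csf1r was called (-0.94, SE 0.214), and that call was lost without any one PBS or RANKL library (edgeR adjusted p from 0.0667 to 0.186), without RANKL + Vit D + K replicate 3 (0.0841), with RLE size factors (0.0504), with no filter (0.0822), and by limma (0.0739 to 0.126). The Cd68 call was lost without RANKL replicate 1 (0.0511) or RANKL replicate 3 (0.0508), and by limma with 0.1 or 0.01 added to FPKM (adjusted p = 0.0566 and 0.0616). The part of these markers in the changes of Mertk, Axl, Pros1 and Gas6 was not tested.

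Neutrophil markers also differed, with a summed FPKM of 11.1 to 128 in PBS, 11.3 to 148 in RANKL and 0.551 to 1.72 with the vitamins, where Ly6g, Elane, Mpo, Camp and Ltf were at 0 in all 3 libraries. Their part in the results was not tested. Osteoclast markers summed to 13.7 to 21.1 in PBS, 472 to 996 in RANKL and 51.7 to 85.6 with the vitamins. With the vitamins on RANKL 7 of the 8 osteoclast markers were called lower. The exception, Atp6v0d2, gave -0.23 (SE 0.409, edgeR adjusted p = 0.701). It stayed 7.02-fold above PBS with the vitamins (2.81, SE 0.439, adjusted p = 0.00148). Summed markers of stromal, B, T, megakaryocyte, endothelial, erythroid and dendritic cells stayed at or under 3.76 FPKM in every library, but some moved with the groups. The T cell marker sum, which is Cd4 alone, had a median of 0.516 FPKM in PBS, 2.34 in RANKL and 0.193 with the vitamins. Cd4 was called in all 3 comparisons. With 1 library left out, its edgeR adjusted p reached 0.0879 for RANKL against PBS and 0.0581 for the vitamins against PBS. The endothelial sum had medians of 0.379, 0.762 and 2.69, most of it from Kdr (mean FPKM 0.304, 0.629 and 2.24). Kdr was called higher with the vitamins on RANKL (2.01, SE 0.425). Of the other endothelial markers, Cdh5 and Tek were not called in any comparison, and Emcn was at 0 in all 3 vitamin libraries. The B cell sum had medians of 0.47, 0.616 and 0, with Cd79b called lower. The stromal sum was 0.972 to 1.31 in PBS, 0.823 to 0.909 in RANKL and 1.35 to 1.78 with the vitamins. With the vitamins on RANKL, Runx2 was called higher (1.16, SE 0.212) and Col1a1, with at most 66 counts in a library, lower. The dendritic sum had medians of 0.106, 0.547 and 0.0639, and Flt3, with at most 54 counts, was called lower with the vitamins on RANKL. The part of all these markers in the results was likewise not tested.

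Across the 9 libraries, the genes whose log2 levels followed a member most closely were listed by Pearson's r, as a description over libraries that share their groups. For Mertk they were C1qb (0.998), C1qc (0.998) and Nacc2 (0.996). C1qb had mean FPKM of 652 in PBS, 497 in RANKL and 104 with the vitamins. For Pros1 they were Zfp703 (0.998), Chmp1a (0.997) and Leprot (0.995), for Axl 1600020E01Rik (0.995), Mgst1 (0.994) and Ggt5 (0.994), and for Gas6 Sash1 (0.987), Adipor1 (0.986) and S1pr2 (0.982). For Vkorc1l1 they were Gm2792 (0.99), Eif2b3 (0.99) and Rpf2 (0.984), and for Vkorc1 Tm4sf5 (0.977), Pitpnc1 (0.974) and Pyurf (0.972). The closest genes to Nqo1, Aifm2 and Ggcx were Tedc2 (0.955), Kcnh3 (0.963) and Gm37776 (0.975). Among the 9 genes themselves, Mertk followed Pros1 (r = 0.94), Axl (0.93) and Vkorc1 (0.90), and Vkorc1l1 ran opposite to Axl (-0.92) and Gas6 (-0.91).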

How the data were processed

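BMDM RNA was selected with oligo(dT), and paired reads of 150 bases were sequenced. The deposited table holds raw read counts per gene and FPKM values, which the authors scaled to transcript length and library size. The submitters' processing notes name cutadapt 1.9, HISAT2 2.0.4, StringTie 1.3.4d and edgeR, and the build hg38, although the table lists mouse genes, 87.0% of them with GENCODE M21 (GRCm38) coordinates. Use of strand and sharing of reads between similar genes are not given in the sources used here. Counts of 4 occurred 2.22 times as often as those of 3 and 5 did on average, so both mates of a pair may have been counted. Floors cover counting error only. MK4 is labelled 20 μM and given as 40 μM in the methods. The methods mention pooled RNA, and nothing says that replicates were separate cultures, so p-values measure the spread between these samples, which may be technical.

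Counts were tested with edgeR 4.0.16 in R 4.3.3 (TMM, filterByExpr, quasi-likelihood, 1 model of all 9 libraries, Benjamini-Hochberg over 17002 genes, adjusted p under 0.05). FPKM values are not TMM-scaled, so fold changes can differ from ratios of FPKM. Ratios of FPKM within a library were compared by exact two-sided permutation tests in SciPy 1.17.1. Alternatives were DESeq2 1.42.0, limma 3.58.1 on log2(FPKM + 0.1, 1 or 0.01), RLE size factors, no filter, 2 groups only, a replicate block, and each library left out. Same-numbered PBS and RANKL libraries deviated together weakly (r = 0.122, 0.219 and 0.155, against 0.00682, -0.0897 and -0.0139 for the best other number). The numbers may therefore pair the samples of that comparison, but the labels state no pairing. The tests printed are unpaired, and the replicate block is given where it changed a call. Paired exact tests of ratios cannot go below p = 0.25. On simulated counts for the vitamins against RANKL (16410 genes), edgeR called 16.7% of 96 genes changed 2-fold and 67.4% of 95 changed 4-fold, with 2 false calls, and DESeq2 called 43.8% and 78.9% with 32 false calls. The members and lists were chosen with earlier results of these data known. Some genes of the lists are not reported here and were left out of the list counts and sums. From each list, up to 4 called genes a direction with the largest changes are named, with all treatment checks. Gpx4, Adam17, Tyro3, Bglap, F2, F7, F10, Proc, Itgam, Atp6v0d2, Cdh5, Tek and Emcn, not called in the comparison given or not tested, were named after their values were seen. So were Cd4, Kdr, Cd79b, Runx2, Col1a1 and Flt3, markers of other cells. The 3 genes most correlated with a member in log2(FPKM + 0.1) are named, or the first of them for 3 members.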

Additional observations from a re-analysis of the deposited data

How the results depend on the processing

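Over 17 alternative fits, Mertk, Axl and Pros1 in both vitamin comparisons, Gas6 in both comparisons with PBS and Vkorc1l1 against PBS kept direction and call. Of the other listed genes called, all 63 (vitamins against RANKL), 56 (vitamins against PBS) and 19 (RANKL against PBS) kept their direction, and 45, 35 and 6 kept their call in every alternative. For RANKL against PBS, 4 members were called by DESeq2, 1 by limma on log2(FPKM + 0.01), and 1 to 3 when a library was left out. All genes called there were 1699 with DESeq2, 1736 with only the 2 groups, and 126 (without PBS replicate 3) to 1903 (without RANKL + Vit D + K replicate 2) when a library was left out. For the vitamins against RANKL they ranged from 3199 (without RANKL replicate 1) to 8259 (without RANKL + Vit D + K replicate 2). limma on log2(FPKM + 0.1) moved the median of all genes in that comparison to -0.164 and called 2046 higher and 3855 lower, where edgeR called 2796 and 2929, and its splits were 2295 and 3708 with 1 added and 1865 and 3560 with 0.01 added (median -0.202). For RANKL against PBS it called 466 higher and 157 lower, where edgeR called 400 and 214. With 0.01 added it called 354 higher and 94 lower. The cause of these shifts was not tested.

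The Vkorc1 change with RANKL, not called anywhere, turned to 0.08, 0.07 and 0.08 in limma with 0.1, 1 and 0.01 added, 0.01 with no filter, 0.00 with only the 2 groups, and -0.10 to 0.06 when a library was left out. Gas6 with the vitamins on RANKL ranged from -0.40 to 0.01 when a library was left out. The Mertk to Axl difference between vitamins and RANKL was -0.23 with 0.1 added to both FPKM values, and -0.14 to 0.15 when a library was left out. The causes were not tested. The replicate block called 825, 5873 and 7041 genes. The numbers of the vitamin libraries did not pair with RANKL (r = 0.00625, 0.0428 and 0.107) or PBS (-0.0216, 0.0217 and 0.0237). In that block Nqo1 with the vitamins on RANKL was called (0.48, edgeR adjusted p = 0.0255) and Vkorc1 against PBS was not (-0.44, adjusted p = 0.0528). Together with Aifm2 under RANKL these were the members whose call it changed. With 3 libraries a group, edgeR missed most 2-fold changes in the simulated counts, where 16219 of 16410 genes were unchanged. In the deposited counts 33.7% of genes were called for the vitamins against RANKL, which makes the adjusted threshold less strict. The simulated miss rate therefore need not hold there.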
